A study of Rattus norvegicus with 24 samples.

Results

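The 9 genes of lipoprotein metabolism described here were measured in 12 drug-exposed and 12 control arrays of rat hepatocytes. They are Mttp, Apob, Apoa1, Apoa2, Apom, Apoa4, Apoc3, Apoe and Lipc, a named list matched to the array through the platform annotation. The list found 11 probe sets, 2 each for Apob and Apoe and 1 for each of the other genes, of 31042 tested probe sets for 14217 genes. Primary rat hepatocytes lay between layers of collagen and received 4 piperazine designer drugs separately for 24 h. Every drug was dosed at the level the labels call EC20, where its effect reaches 20%. The treated groups were BZP (benzylpiperazine) at 625 µM, TFMPP (trifluoromethylphenylpiperazine) at 35 µM, MeOPP (methoxyphenylpiperazine) at 522 µM and MDBP (methylenedioxybenzylpiperazine) at 467 µM. Each had 3 treated samples. A control in 0.1% DMSO, the solvent, is named for each treated sample in the labels, which gives 12 pairs. Strain, age and sex of the animals are not given in the labels. Nothing says that the samples are separate animals or cultures, so the p-values reflect a spread between samples that can be technical.

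The liver secretes triglyceride in very low density lipoprotein (VLDL), a particle built on a single molecule of apolipoprotein B. In the endoplasmic reticulum the microsomal triglyceride transfer protein, encoded by Mttp, loads lipid onto apolipoprotein B as it is made, and apolipoprotein B that is not loaded is degraded. High density lipoprotein (HDL) is built instead on apolipoproteins A-I and A-II and also bears apolipoprotein M, while apolipoproteins C-III, E and A-IV move between particles and steer their lipolysis and uptake. Hepatic lipase, encoded by Lipc, hydrolyses lipids of remnant particles and HDL once they are in the circulation. Hepatocytes make all of these proteins, and the arrays measure their RNA, not the secreted particles.

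The region just before the start is shown for 3 genes that differed in response, with Apom clearly lower, Apoa4 slightly lower and Lipc not called in the mean of the drugs. Mttp, which fell the furthest, had no sequence to show, nor had Apob and Apoa2. Sequences are from RefSeq on GRCr8 and cover the 250 bases before the start. They were at hand for 4 of the 9 genes, of which Apoe is not shown. Capitals mark the motifs searched on both strands. These were AGGTCA, a nuclear receptor half-site, GGGTCA, its variant, AAAGTCC, the core of an HNF4 site, GTTAAT, which is HNF1's half-site, and TATAAA, which is the TATA box. No 2 matches overlapped.
Apom, chr20:3695368-3695617, plus strand: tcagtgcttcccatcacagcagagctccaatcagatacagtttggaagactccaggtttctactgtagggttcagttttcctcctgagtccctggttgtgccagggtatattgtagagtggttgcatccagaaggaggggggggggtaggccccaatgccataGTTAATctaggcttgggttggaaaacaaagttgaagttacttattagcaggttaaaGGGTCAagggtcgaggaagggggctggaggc
Apoa4, chr8:55435529-55435778, plus strand: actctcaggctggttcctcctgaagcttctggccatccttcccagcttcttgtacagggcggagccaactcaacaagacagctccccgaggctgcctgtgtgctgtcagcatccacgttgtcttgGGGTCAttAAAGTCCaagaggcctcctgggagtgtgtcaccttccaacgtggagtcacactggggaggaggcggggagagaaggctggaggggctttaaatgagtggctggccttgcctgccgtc
Lipc, chr8:80516286-80516535, minus strand: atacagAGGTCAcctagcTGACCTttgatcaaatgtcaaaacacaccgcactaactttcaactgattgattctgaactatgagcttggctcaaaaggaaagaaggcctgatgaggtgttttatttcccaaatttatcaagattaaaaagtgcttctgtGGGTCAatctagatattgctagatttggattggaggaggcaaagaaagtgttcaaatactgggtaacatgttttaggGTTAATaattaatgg
The Apom stretch held GTTAAT 87 to 82 bases and GGGTCA 31 to 26 bases before the start. The Apoa4 stretch held GGGTCA at 125 to 120 and AAAGTCC at 117 to 111 bases before it. In Lipc, AGGTCA stood at 244 to 239 and, on the other strand, at 232 to 227 bases, with GGGTCA at 92 to 87 and GTTAAT at 15 to 10 bases. Among 33469 rat promoters of the same length, AGGTCA was found in 14.1%, GGGTCA in 11.9%, AAAGTCC in 3.99%, GTTAAT in 6.45% and TATAAA in 12.9%. A match of letters is a description and not a binding site.

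Averaged over the 4 drugs, 8 of the 11 probe sets, for 7 of the 9 genes, were lower than in the paired DMSO arrays and none was higher (limma, Benjamini-Hochberg adjusted p under 0.05, the threshold for a change here). Of all tested probe sets, 22.4% were called in that comparison and 9.85% were called lower. The share called in either direction was larger at high levels, where most of the 11 lie. It was 48.4% for means between 8 and 10, 48.7% between 10 and 12 and 38.2% at 12 or more. When only the 13367 probe sets with a mean of 5 or more were tested, 6260 were called, among them 9 of the 10 for these genes. By drug, BZP lowered 5 of the 11, where 4.48% of all probe sets were lower and 4.75% higher. TFMPP lowered 2, where 1.22% of all were lower and 0.557% higher. MeOPP lowered 4, where 3.78% were lower and 2.23% higher, and MDBP lowered 4, where 3.76% were lower and 3.22% higher. On the log2 scale the 11 had a median change of -0.38 (BZP), -0.25 (TFMPP), -0.22 (MeOPP) and -0.24 (MDBP), where the medians of all probe sets lay between -0.0017 and 0.015. In all, 7 probe sets were lower in 12 of 12 pairs, as were 3.89% of all probe sets. Without the pair terms only Mttp and Apob 1388190_at remained called in the mean of the drugs. Values below are log2 expression values made by RMA, so a difference of 1 is a doubling, and changes are treated minus paired DMSO ± the model's standard error (SE). In a bulk culture, fewer cells of a type and less RNA per cell cannot be told apart.

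**Figure D1:**
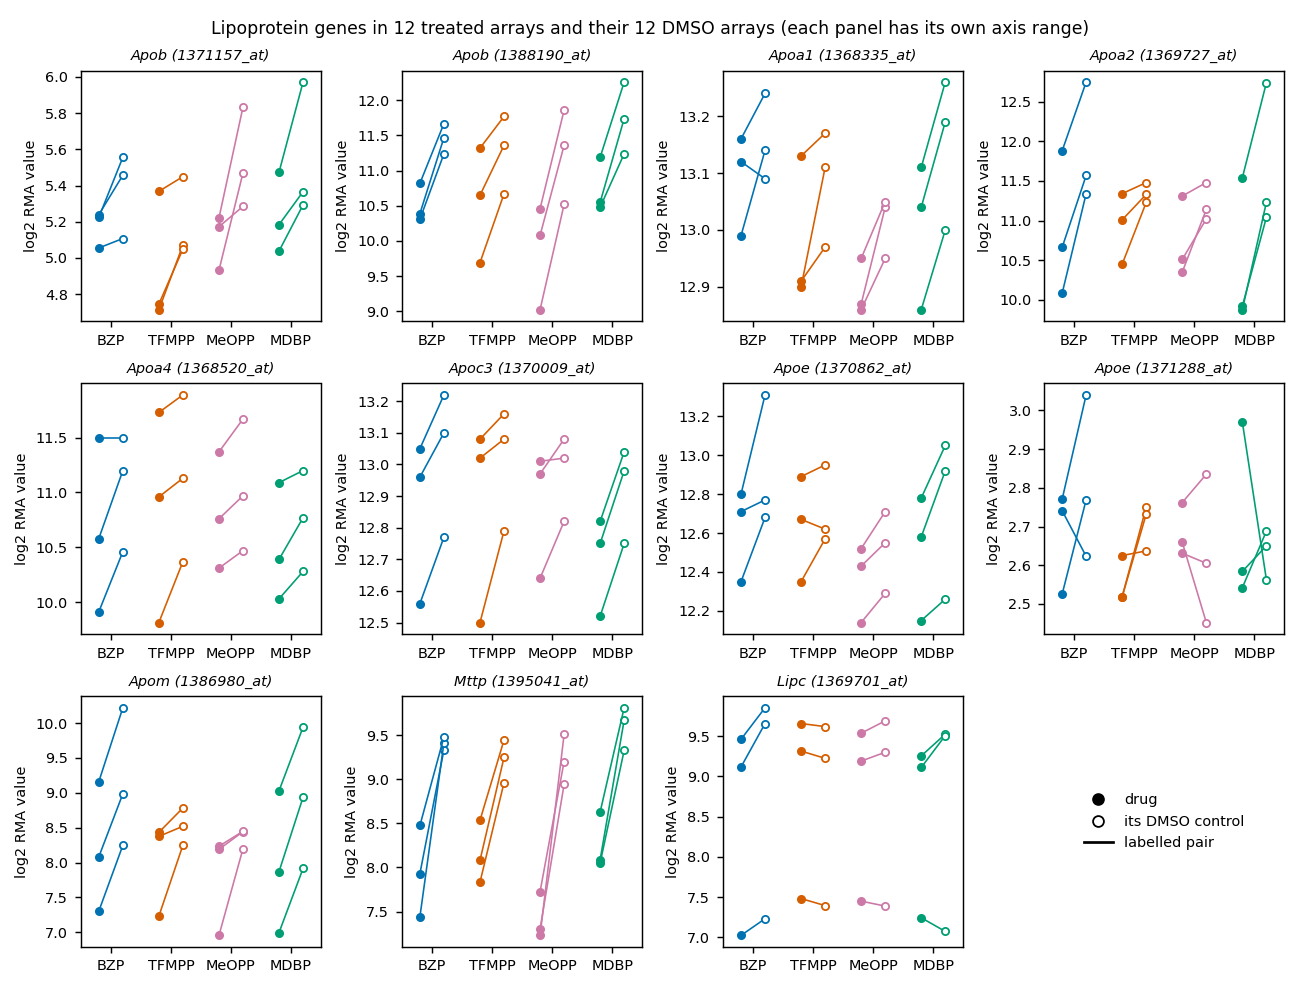
Log2 RMA value (vertical axis, own range in each panel) of the 11 probe sets, by drug (horizontal axis), with a filled point for each treated array, an open point for its DMSO control and a line joining each labelled pair. Mttp is the panel in which all 12 treated arrays, 7.229 to 8.631, lie below all 12 DMSO arrays, 8.944 to 9.814, while Lipc splits into a low set and a high set in treated and DMSO arrays alike.

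The transfer protein gene Mttp fell the furthest of the 9 genes in the mean of the drugs, and it fell with each drug. With BZP its values were 7.931, 7.441 and 8.477, against 9.337, 9.419 and 9.483 in the paired DMSO arrays. With TFMPP they were 8.081, 8.536 and 7.834, against 9.251, 9.448 and 8.963 in DMSO. Treated and control arrays did not overlap with either drug, although the treated arrays spread more widely. With MeOPP the values were 7.726, 7.229 and 7.302, against 9.203, 9.511 and 8.944 in DMSO. With MDBP they were 8.053, 8.089 and 8.631, against 9.331, 9.675 and 9.814 in DMSO. These groups did not overlap either, and the MeOPP arrays held the 2 lowest values of the series for this gene. The change was -1.46 ± 0.16 with BZP (2.76-fold lower; limma adjusted p = 3.87e-05) and -1.07 ± 0.16 with TFMPP (adjusted p = 0.00259). It was -1.80 ± 0.16 with MeOPP (3.48-fold lower; adjusted p = 1.03e-05) and -1.35 ± 0.16 with MDBP (adjusted p = 0.000106). Averaged over the drugs it was -1.42 ± 0.08 (2.68-fold lower; adjusted p = 5.5e-09; lower in 12 of 12 pairs), and single pairs ranged between -2.28 and -0.91.

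Apob, the structural protein of VLDL, is measured by 2 probe sets that fell together but by different amounts. Probe set 1388190_at, with DMSO values between 10.52 and 12.26, stood at 10.39, 10.82 and 10.31 with BZP, against 11.47, 11.67 and 11.24 in DMSO. With TFMPP it stood at 10.65, 11.32 and 9.692, against 11.36, 11.77 and 10.67 in DMSO. The BZP groups did not overlap, and the TFMPP groups did, although each treated array lay below its own control. With MeOPP the values were 10.08, 10.46 and 9.024, against 11.36, 11.86 and 10.52 in DMSO. With MDBP they were 10.55, 11.19 and 10.48, against 11.74, 12.26 and 11.24 in DMSO. Neither of these drugs' groups overlapped with its controls, and the MeOPP pairs changed by nearly the same amount, from -1.49 to -1.28. The change was -0.96 ± 0.11 with BZP (adjusted p = 4.99e-05), -0.71 ± 0.11 with TFMPP (adjusted p = 0.00286), -1.39 ± 0.11 with MeOPP (2.62-fold lower; adjusted p = 6.89e-06) and -1.004 ± 0.11 with MDBP (adjusted p = 5.25e-05). Without the third TFMPP pair the TFMPP call was lost (-0.58; adjusted p = 0.0646).

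The second Apob probe set, 1371157_at, had low values, 4.714 to 5.474 in the treated arrays and 5.049 to 5.972 in the DMSO arrays. It changed by -0.30 ± 0.05 in the mean of the drugs (adjusted p = 0.000836), less than 1388190_at at -1.02 ± 0.06, and was lower in 12 of 12 pairs. By drug it was called only with MeOPP, at -0.42 ± 0.11 (adjusted p = 0.0322), where the values were 4.932, 5.221 and 5.172, against 5.47, 5.834 and 5.285 in DMSO. These groups did not overlap, but the call was lost without the first MeOPP pair (adjusted p = 0.218) or the second (adjusted p = 0.258). With BZP, TFMPP and MDBP the changes were -0.20, -0.25 and -0.31. Averaging both probe sets into 1 value gave a change of -0.66 for Apob.

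The HDL apolipoproteins Apoa1 and Apoa2 moved by very different amounts. Apoa2, which encodes apolipoprotein A-II, stood at 10.08, 10.66 and 11.88 with BZP, against 11.34, 11.57 and 12.75 in DMSO. With MDBP it stood at 9.919, 9.875 and 11.54, against 11.04, 11.23 and 12.74 in DMSO. In both sets the third pair lay higher than the other two in treated and DMSO arrays alike, so the groups overlapped while every pair fell. With TFMPP the values were 10.45, 11.01 and 11.34, against 11.23, 11.33 and 11.48 in DMSO. With MeOPP they were 10.35, 10.51 and 11.31, against 11.14, 11.02 and 11.48 in DMSO. The pairs of these 2 drugs were uneven, with pair 1 at -0.78 and -0.79 and pair 3 at -0.14 and -0.17. The change was -1.01 ± 0.13 with BZP (2.02-fold lower; adjusted p = 0.000151), -1.23 ± 0.13 with MDBP (2.34-fold lower; adjusted p = 4.58e-05), -0.50 ± 0.13 with MeOPP (adjusted p = 0.0359) and -0.42 ± 0.13 with TFMPP (adjusted p = 0.157). The MeOPP call was lost without its first pair (adjusted p = 0.316) or its second (adjusted p = 0.171). In the mean of the drugs Apoa2 changed by -0.79 ± 0.07 (1.73-fold lower; adjusted p = 3.02e-07; lower in 12 of 12 pairs).

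Apoa1, which encodes apolipoprotein A-I, the main protein of HDL, had values of 12.86 to 13.16 in the treated arrays and 12.95 to 13.26 in the DMSO arrays. Its mean change was -0.11 ± 0.04 (adjusted p = 0.0761; lower in 11 of 12 pairs), and its largest single fall was -0.21 in the first TFMPP pair. The MeOPP arrays, at 12.87, 12.95 and 12.86, lay at or below the lowest of their DMSO arrays at 13.04, 13.05 and 12.95. Apoa1 passed the threshold when low probe sets were left out (adjusted p = 0.0322) and when the prior followed the expression level (adjusted p = 0.0151). It also passed when quantile normalization was repeated (adjusted p = 0.0499) and when the probe sets of each gene were averaged (adjusted p = 0.0314). Over its alternatives the adjusted p reached 0.428, without control cluster 1. Probe sets at this level changed little in general, since of 191 probe sets with a mean of 12 or more, 38.2% were called in the mean of the drugs and 1.57% had a change over 0.5 in size. Among 924 probe sets between 10 and 12, where Apoa2 lies, 48.7% were called and 7.47% had a change over 0.5. Among 3008 probe sets between 8 and 10, 48.4% were called and 8.74% had a change over 0.5.

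Apom encodes apolipoprotein M, the HDL protein that carries sphingosine 1-phosphate, and it fell clearly with BZP and MDBP. With BZP it stood at 7.303, 8.082 and 9.161, against 8.247, 8.986 and 10.22 in DMSO. With MDBP it stood at 6.996, 7.871 and 9.03, against 7.915, 8.937 and 9.942 in DMSO. The 3 pairs of either drug changed by nearly equal amounts, between -1.07 and -0.90, although their levels spread over 2 log2 units. With TFMPP the values were 7.232, 8.433 and 8.375, against 8.249, 8.783 and 8.52 in DMSO. With MeOPP they were 6.955, 8.189 and 8.234, against 8.199, 8.443 and 8.448 in DMSO. With these drugs the first pair fell by 1.02 and by 1.24 while the other pairs changed by -0.35 to -0.14. The change was -0.97 ± 0.17 with BZP (adjusted p = 0.00199), -0.97 ± 0.17 with MDBP (adjusted p = 0.00266), -0.57 ± 0.17 with MeOPP (adjusted p = 0.0666) and -0.50 ± 0.17 with TFMPP (adjusted p = 0.205). In the mean of the drugs it was -0.75 ± 0.09 (1.69-fold lower; adjusted p = 9.14e-06; lower in 12 of 12 pairs).

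**Figure D2:**
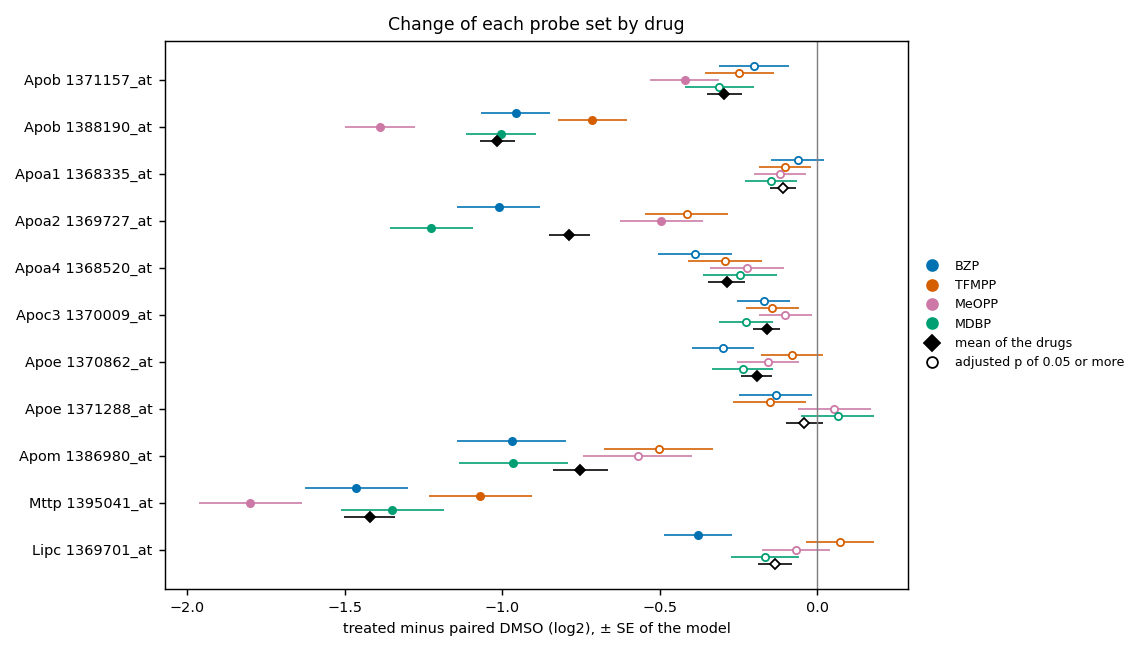
Change in each of the 11 probe sets (vertical axis) as treated minus paired DMSO on the log2 scale (horizontal axis), with the SE of the model (3 pairs for each drug, 12 for the mean). Filled points have an adjusted p under 0.05; Mttp and Apob 1388190_at are filled for all 4 drugs, while Apoa2 and Apom lie lower with BZP and MDBP than with TFMPP and MeOPP.

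Apoa1, Apoc3, Apoa4 and Apoa5 lie next to each other on rat chromosome 8 in the RefSeq gene table, with no other listed gene between them. Apoc3, whose protein slows the lipolysis and uptake of triglyceride-rich particles, had values of 12.5 to 13.08 in the treated arrays and 12.75 to 13.22 in the DMSO arrays. It was lower in 12 of 12 pairs by at most 0.29, with a mean change of -0.16 ± 0.04 (1.12-fold lower; adjusted p = 0.0109), and no single drug reached the threshold. Without the 4 pairs of the first cluster of controls described below, the Apoc3 mean was -0.13 (adjusted p = 0.174). Apoa4, which encodes apolipoprotein A-IV of triglyceride-rich particles and HDL, had values of 9.814 to 11.73 in the treated arrays and 10.28 to 11.89 in the DMSO arrays. It too was lower in 12 of 12 pairs, with a mean change of -0.29 ± 0.06 (1.22-fold lower; adjusted p = 0.00186). With BZP it stood at 9.912, 11.5 and 10.58, against 10.46, 11.5 and 11.2 in DMSO, and the change of -0.39 ± 0.12 missed the threshold (adjusted p = 0.0504). One of these pairs was level, at -0.0062, and leaving out each pair in turn gave changes between -0.58 (adjusted p = 0.00985) and -0.28 (adjusted p = 0.337). Apoa5, which promotes lipolysis of plasma triglyceride and is no member of the 9, stood at -0.01 ± 0.09 (adjusted p = 0.949; lower in 5 of 12 pairs). None of these 4 neighbours changed by as much as Apoa2 or Mttp in the mean of the drugs.

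Apoe, the ligand by which remnant particles are taken up, is also covered by 2 probe sets. Probe set 1370862_at had values of 12.14 to 12.89 in the treated arrays and 12.26 to 13.31 in the DMSO arrays. It was lower in 11 of 12 pairs, with a mean change of -0.19 ± 0.05 (1.14-fold lower; adjusted p = 0.00861). No single drug was called, and the largest change was that of BZP at -0.30 ± 0.10 (adjusted p = 0.0693), with pairs at -0.33, -0.06 and -0.51. Probe set 1371288_at had values of 2.519 to 2.97 in the treated arrays and 2.452 to 3.04 in the DMSO arrays, low among the values of the array, and changed by -0.04 ± 0.06 (adjusted p = 0.694). Its sign differed between drugs, and the table gives no detection call. Without the first cluster of controls, the mean of 1370862_at was -0.19 (adjusted p = 0.0796). The average of both probe sets changed by -0.12 (adjusted p = 0.0663). Macrophages also make apolipoprotein E, and among 11 measured markers of Kupffer cells and leukocytes 7 were lower and 1, Cd68, was higher in the mean of the drugs. Of all probe sets 9.85% were called lower and 12.5% higher there, and 22.3% of those with a mean between 4 and 6 were called in either direction. The mean level of these markers was 4.487 to 5.916 in the treated arrays and 4.724 to 6.168 in the DMSO arrays. The Kupffer cell lectin Clec4f changed by -0.48 ± 0.08 and the macrophage growth factor receptor Csf1r by -0.41 ± 0.06. Cd68 changed by 0.45 ± 0.08 and was higher in 12 of 12 pairs. Lyz2, the marker with the highest mean value at 9.35, was not called at -0.11 ± 0.08 (adjusted p = 0.365). With BZP alone 2 of these markers were called higher and 0 lower. The lowest value of the whole table was 1.43 and no detection call is given, so these levels cannot show whether such cells were present. The part of these cells in the Apoe result was not tested.

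Lipc, the gene of hepatic lipase, differed more between sets of samples than between drug and DMSO. The first pair of every drug had low values, 7.024, 7.481, 7.449 and 7.243 with BZP, TFMPP, MeOPP and MDBP, against 7.231, 7.394, 7.388 and 7.073 in their DMSO arrays. The other 8 pairs had values of 9.109 to 9.655 in the treated arrays and 9.223 to 9.851 in the DMSO arrays. Drug-exposed and DMSO arrays overlapped within both sets. BZP lowered Lipc by 0.38 ± 0.11 (1.30-fold lower; adjusted p = 0.0364), with pairs at -0.21, -0.39 and -0.54. That call was lost without the second BZP pair (adjusted p = 0.12) or the third (adjusted p = 0.248). TFMPP gave 0.07 ± 0.11, MeOPP -0.07 ± 0.11 and MDBP -0.17 ± 0.11, and the mean was -0.14 ± 0.05 (adjusted p = 0.0882; lower in 7 of 12 pairs). Without the first pairs, which are cluster 1 of the controls described below, the mean was -0.22 (adjusted p = 0.0252), and without cluster 3 it was -0.09 (adjusted p = 0.344). With 1 value per cluster it was -0.18 (adjusted p = 0.174), and without the first MDBP pair alone -0.18 (adjusted p = 0.0154).

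The 12 DMSO arrays were grouped into 5 clusters by their correlations with each other, since the labels name no batch. The number of clusters was chosen and not found by a test. Cluster 1 held the controls of pair 1 of every drug, cluster 2 those of pair 2 except for MDBP, and cluster 3 those of pair 3 of BZP and MDBP. Cluster 4 held pair 3 of TFMPP and of MeOPP, and cluster 5 the remaining pair of MDBP. DMSO arrays correlated at 0.994 to 0.997 within a cluster and at 0.962 to 0.992 between clusters, over all tested probe sets. The clusters were built from these same correlations, so the gap between the 2 ranges is no test of them. The drugs are thus spread unevenly over the clusters, and only in cluster 1 do all 4 stand side by side.

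Within cluster 1, Apom changed by -0.94 in the BZP pair, -1.02 in the TFMPP pair, -1.24 in the MeOPP pair and -0.92 in the MDBP pair. In cluster 2 it changed by -0.90 with BZP, -0.35 with TFMPP and -0.25 with MeOPP. In cluster 4, which holds no BZP or MDBP pair, it changed by -0.14 with TFMPP and -0.21 with MeOPP. Cluster 3, with no TFMPP or MeOPP pair, showed -1.06 with BZP and -0.91 with MDBP. Apoa2 was lower with BZP and MDBP in cluster 1 as well, at -1.26 and -1.13, against -0.78 with TFMPP and -0.79 with MeOPP. In cluster 2 Apoa2 changed by -0.91 with BZP, -0.33 with TFMPP and -0.52 with MeOPP. Cluster 3 also had the highest DMSO values of both genes, 12.74 to 12.75 for Apoa2, where the other clusters had 11.02 to 11.57, and 9.942 to 10.22 for Apom, where they had 7.915 to 8.986. The part of the clusters in the differences between drugs was not tested beyond these values.

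For Apob and Mttp the order of the drugs held where TFMPP and MeOPP could be compared in the same cluster. Apob 1388190_at changed by -1.28 with MeOPP and -0.72 with TFMPP in cluster 1, by -1.39 and -0.45 in cluster 2, and by -1.49 and -0.97 in cluster 4. Mttp changed by -1.48 with MeOPP and -1.17 with TFMPP in cluster 1, by -2.28 and -0.91 in cluster 2, and by -1.64 and -1.13 in cluster 4. MeOPP was used at 522 µM and TFMPP at 35 µM, so these are differences between exposures.

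**Figure D3:**
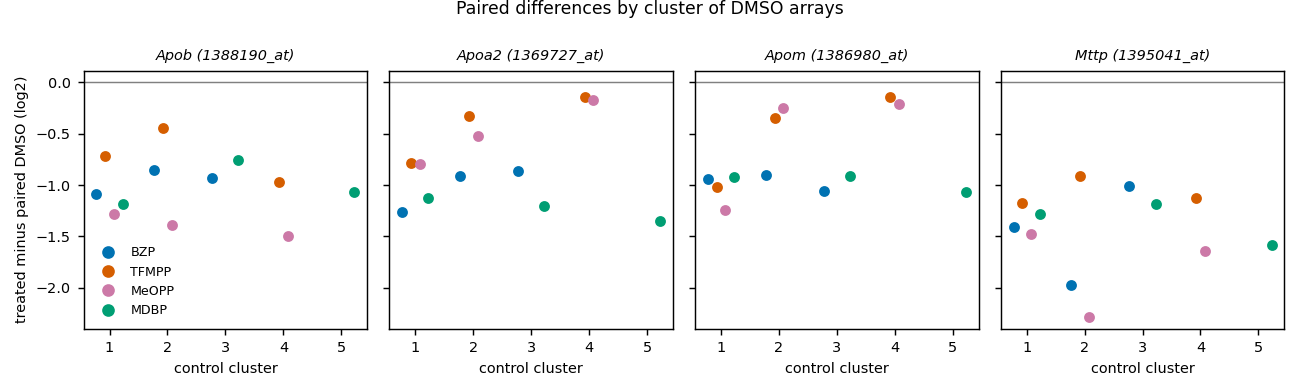
Paired difference, treated minus DMSO on the log2 scale (vertical axis), of Apob 1388190_at, Apoa2, Apom and Mttp in each cluster of DMSO arrays (horizontal axis), with 1 point for each of the 12 pairs and the colour giving the drug. For Apob and Mttp the MeOPP point lies below the TFMPP point in clusters 1, 2 and 4, while for Apom all 4 drugs lie between -1.24 and -0.92 in cluster 1.

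The 6 differences between drugs were tested directly over all probe sets, and none of the 11 probe sets passed in any of them. Over all probe sets, 0.0515% were called for BZP minus TFMPP and 0% for the other 5 differences. At an unadjusted p under 0.05 there were 2 probe sets of the 9 genes for BZP minus TFMPP, 2 for BZP minus MeOPP, 0 for BZP minus MDBP, 2 for TFMPP minus MeOPP, 1 for TFMPP minus MDBP and 2 for MeOPP minus MDBP. At that unadjusted threshold 6.42%, 6.93%, 3.7%, 5.54%, 6.45% and 4.89% of all probe sets passed in the same order. For TFMPP minus MeOPP, Apob 1388190_at gave 0.68 (95% interval 0.34 to 1.01; adjusted p = 0.70) and Mttp 0.73 (0.24 to 1.22; adjusted p = 0.779). For TFMPP minus MDBP, Apoa2 gave 0.81 (0.42 to 1.21; adjusted p = 0.406). In BZP and MDBP the piperazine bears a benzyl group and in TFMPP and MeOPP a phenyl group, and their mean changes were set against each other after these values had been seen. The benzyl pair minus the phenyl pair gave -0.66 ± 0.13 for Apoa2 (adjusted p = 0.203), -0.43 ± 0.17 for Apom (adjusted p = 0.567) and -0.27 ± 0.11 for Lipc (adjusted p = 0.563). For Mttp it gave 0.03 (95% interval -0.32 to 0.38) and for Apob 1388190_at 0.07 (-0.16 to 0.31). All 4 drugs differed in concentration.

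The 12 paired differences of the members were also set against each other, as a description over 12 pairs that share clusters and drugs. Apoa2 went with Apoc3 (r = 0.836) and Apom (r = 0.818), and Apoc3 with Apom (r = 0.82). Apob 1388190_at went with Mttp at r = 0.61, but with Apoa2 at -0.08 and with Apom at -0.13. Other members reached similar values, as Apoa4 with Apoe (r = 0.692), Apoe with Lipc (r = 0.644) and Apoa1 with Apoc3 (r = 0.615). Mttp and Apoa2 gave r = 0.02. Over all genes, the differences most like those of Apob were of Nfia (r = 0.921), Insr (0.875) and Cobll1 (0.856), and those most like Mttp were of Casd1 (0.932), Itpr1 (0.924) and Slc27a2 (0.914). For Apom they were Rarres2 (0.955), Il1rn (0.887) and Apoc1 (0.872), and for Apoa2 they were Tmem62 (0.886), Apoc1 (0.88) and Mgst1 (0.871). Rnf31 came closest to Apoe (0.935), Dcaf11 to Lipc (0.932), Igfbp4 to Apoc3 (0.903), Slc35c1 to Apoa4 (0.9) and Trim8 to Apoa1 (0.89). These are the highest correlations over 14217 genes.

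Other apolipoprotein genes fell or were not called in the mean of the drugs, 6 lower and 0 higher of 10 measured. Apon changed by -1.26 ± 0.08 (adjusted p = 1.57e-08), and Apoc2, the cofactor of lipoprotein lipase, by -1.07 ± 0.09 (adjusted p = 2.96e-07). Apoc4 changed by -0.88 ± 0.09, a call lost in the 2 fits without pair terms. Each of these 3 genes was lower in 12 of 12 pairs, and with TFMPP the changes were -0.89, -0.80 and -0.57. By drug, BZP lowered 7 genes of the list, TFMPP lowered 2 and raised 1, MeOPP lowered 3 and MDBP lowered 4. Of all probe sets 4.48%, 1.22%, 3.78% and 3.76% were lower with these drugs in the same order, and 0.557% were higher with TFMPP. The largest rise of the list with TFMPP was that of Apol9a at 0.74, which changed by -0.92 with BZP.

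Among 19 genes of particle assembly, lipid supply and secretion, 8 were lower and 5 higher in the mean of the drugs. Ces1d, a carboxylesterase that mobilises stored triglyceride for VLDL, changed by -1.44 ± 0.08 (adjusted p = 2.84e-09), close to the change of Mttp, and was lower in 12 of 12 pairs. Aadac, another lipase of the endoplasmic reticulum with a low mean value of 4.07, changed by -0.84 ± 0.12, and Cideb, which helps to lipidate VLDL, by -0.63 ± 0.05. Higher were Tmem41b, a scramblase of the endoplasmic reticulum, at 0.37 ± 0.08, Dgat2, which makes triglyceride, at 0.20 ± 0.05, and Sar1a, a coat GTPase of export vesicles, at 0.15 ± 0.05. The Sar1a call was lost under 10 of 23 alternatives and the Dgat2 call under 5. P4hb, the protein disulfide isomerase that is the partner subunit of the transfer protein, was chosen after its values were seen and changed by -0.16 ± 0.05 (adjusted p = 0.0287), where Mttp changed by -1.42.

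Of 11 genes of plasma remodelling and HDL, 4 were lower and 1 was higher. Angptl4, an inhibitor of lipoprotein lipase, changed by -1.08 ± 0.09 (adjusted p = 4.18e-07), Lcat, which esterifies HDL cholesterol, by -0.99 ± 0.07, and Paqr9 by -0.81 ± 0.06. Abca1, the lipid pump that loads apolipoprotein A-I, was higher by 0.35 ± 0.06 (adjusted p = 0.000876; higher in 11 of 12 pairs). That call was lost in the 2 fits without pair terms. Of 7 uptake genes 2 were lower and none higher, with the remnant receptor Lrp1 at -0.87 ± 0.08 (adjusted p = 1.22e-06) and its chaperone Lrpap1 at -0.32 ± 0.05. The Lrpap1 call was lost in the same 2 fits as that of Abca1.

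Of 16 transcriptional regulators of these genes, 7 were lower and 3 higher. Nr1h4, the bile acid receptor FXR, changed by -0.50 ± 0.05 (adjusted p = 1.07e-06), Ppargc1a, a coactivator of hepatic metabolism, by -0.39 ± 0.05, and Prox1, a hepatocyte homeobox factor, by -0.35 ± 0.04. Srebf1, the regulator of fatty acid synthesis, was higher by 0.80 ± 0.06 and Srebf2, the regulator of cholesterol synthesis, by 0.35 ± 0.07. Foxa2 was higher by 0.14 ± 0.05 (adjusted p = 0.0475), a call lost under 18 of 23 alternatives, with an adjusted p of 0.229 with 1 value per control cluster. The call of Srebf2 was lost under 3 of 23, among them 1 value per control cluster. Ppargc1a had a low mean value of 3.75, and its call was lost in the 2 fits without pair terms. The counts of these lists in the mean of the drugs stand beside 12.5% of all probe sets called higher and 9.85% called lower. At higher levels the share called in either direction was larger, 43.6% for means between 6 and 8 and 48.4% between 8 and 10.

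**Figure D4:**
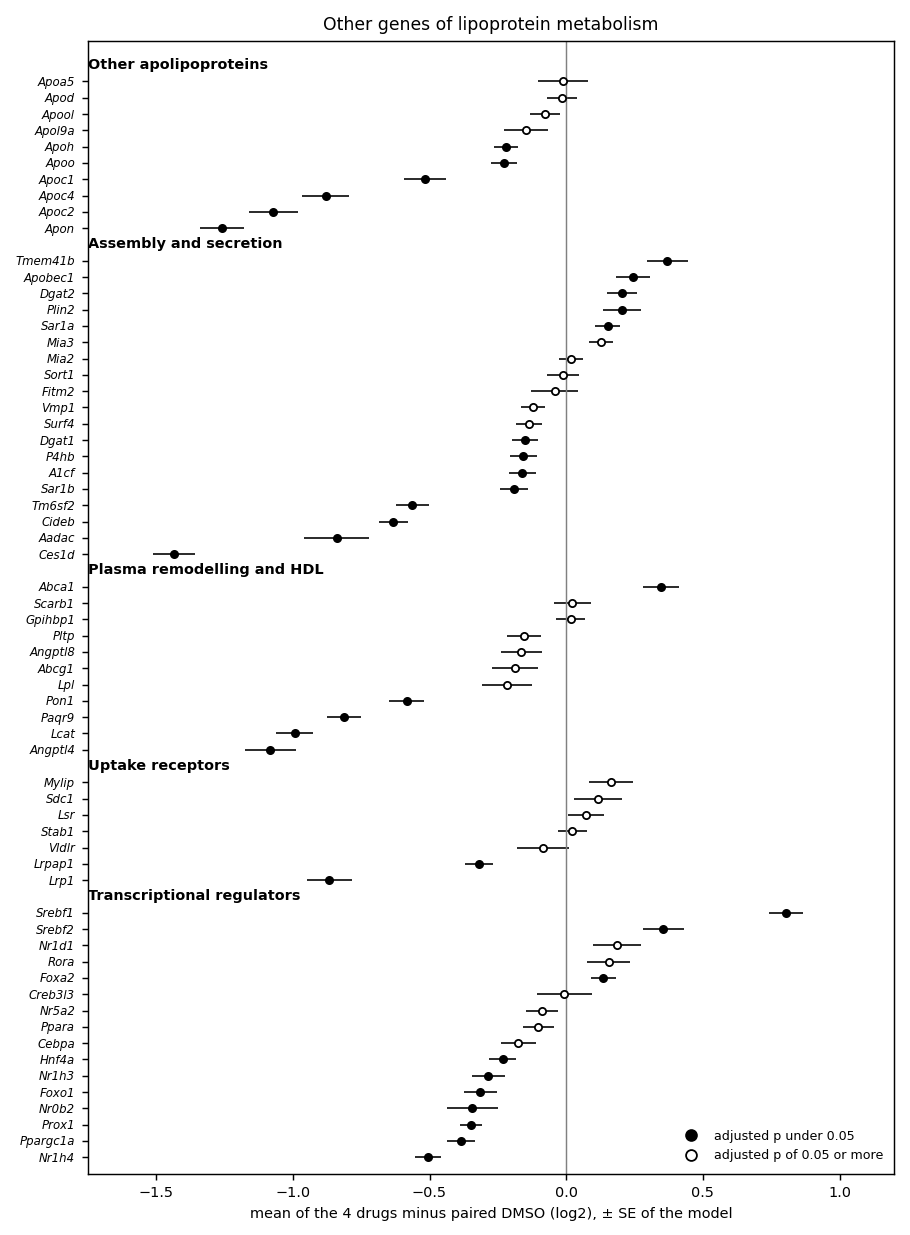
Change of the measured genes of 5 wider lists (vertical axis, ordered by change within each list) as the mean of the 4 drugs minus paired DMSO on the log2 scale (horizontal axis), with the SE of the model over 12 pairs. Filled points have an adjusted p under 0.05; Ces1d, Apon, Angptl4 and Apoc2 lie below -1, and Srebf1 at 0.80 lies highest.

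Array medians lay between 4.45 and 4.52 and no 2 arrays were identical. The hepatocyte markers had a list mean of 11.94 to 12.57 in the treated arrays and 12.27 to 12.7 in the DMSO arrays. In the mean of the drugs 5 of 9 measured hepatocyte markers were lower and 1 was higher. Of all probe sets 9.85% were called lower and 12.5% higher in that comparison. The hepatocyte markers lie at high levels, where 48.7% of probe sets with a mean between 10 and 12 were called in either direction, and 38.2% at 12 or more. The cytochrome Cyp2e1 changed by -1.49 ± 0.11 (lower in 12 of 12 pairs), the urea cycle enzyme Cps1 by -0.37 ± 0.06, Tat by -0.28 ± 0.05, Ttr by -0.24 ± 0.04 and Hnf4a by -0.23 ± 0.05. Ahsg was higher by 0.34 ± 0.05, and albumin (Alb) stood at -0.01 ± 0.04. The Alb probe set had the highest mean of all, 14.06, where the highest value of any array was 14.1. Its paired differences spanned only -0.038 to 0.0079, and values at the top of the scale cannot show whether albumin RNA changed. Stellate cell markers had 1 higher and 2 lower of 10, and neither the 7 endothelial nor the 5 cholangiocyte markers held a called gene. The 3′ minus 5′ signal of 3 control genes, a measure of RNA quality, was 1.129 to 1.559 in the treated arrays and 1.115 to 1.546 in the DMSO arrays (treated above DMSO in 7 of 12 pairs; exact sign-flip permutation test, two-sided p = 0.698). The part of hepatocyte identity in the falls described above was not tested.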

How the data were processed

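Total RNA was hybridised to 24 Affymetrix rat arrays, 1 colour each. The deposited values are log2 expression values made with RMA by the authors, per the submitters' processing notes, and RMA corrects background, normalizes by quantiles and summarises probes into probe sets; no version is stated. The 57 Affymetrix controls among the 31099 rows were dropped. The platform annotation gave 1 symbol to 20826 rows; 436 had several and 9780 had none. All arrays entered 1 fit in limma 3.58.1 under R 4.3.3, whose 12 pair and 4 drug terms left 8 residual degrees of freedom plus 7.66 from the prior. Tests were two-sided, adjusted by Benjamini-Hochberg over 31042 probe sets, and tested on simulated data. Control titles name the paired sample, and deviations from group means correlated at 0.612 to 0.802 in the 12 pairs. A gene of a wider list took its probe set of highest mean, and up to 3 a direction were named among those called and alike in 10 of 12 pairs. The members, lists and tests were chosen with earlier results of these data known. Alternatives left out pair terms, pairs or clusters, joined the DMSO arrays, fitted each drug alone, repeated quantile normalization, left out mean values under 5, changed the prior, averaged probe sets or took 1 value per cluster. Arrays carry no depth, and their number limits precision. Figures used matplotlib 3.10.9 in Python 3.11.15.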

Additional observations from a re-analysis of the deposited data

Results flagged for a closer look

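Lipc had paired differences below 0 in the 3 BZP pairs and above 0 in the 3 TFMPP pairs, and it was picked out for that pattern of signs. With BZP it changed by -0.21, -0.39 and -0.54, against 0.09, 0.04 and 0.09 with TFMPP. The difference, BZP minus TFMPP, was -0.451 on the log2 scale (SE 0.15; 95% interval -0.77 to -0.13; limma adjusted p = 0.654, unadjusted p = 0.00942). The test of the difference did not pass. TFMPP alone gave 0.07 ± 0.11 (adjusted p = 0.916), and the BZP call (adjusted p = 0.0364) was lost without the second BZP pair (adjusted p = 0.12) or the third (adjusted p = 0.248). BZP was used at 625 µM and TFMPP at 35 µM, and the third pairs of the 2 drugs belong to different clusters of DMSO arrays. In the shared clusters Lipc changed by -0.21 with BZP and 0.09 with TFMPP in cluster 1, and by -0.39 with BZP and 0.04 with TFMPP in cluster 2.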

How the results depend on the processing

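Mttp and Apob 1388190_at kept their calls in the mean of the drugs under all 23 alternatives. Without the pair terms (no replicate block), the called probe sets of the 9 genes numbered 1 for BZP, 0 for TFMPP, 1 for MeOPP, 1 for MDBP and 2 for the mean, against 5, 2, 4, 4 and 8 with them. Over all probe sets these fits called 38, 1, 12, 28 and 1927, against 2867, 551, 1865, 2167 and 6952. With the 12 DMSO arrays joined and no pair terms the members' counts were 1, 1, 2, 1 and 2, and those over all probe sets 386, 20, 796, 294 and 2156. In these 2 fits Apoa2, Apom, Apoa4 and Apob 1371157_at lost their calls in the mean, and in the fit without pair terms Mttp alone kept calls by drug, with BZP, MeOPP and MDBP. Apoc3 and Apoe 1370862_at also lost theirs with 1 value per control cluster (adjusted p = 0.09 and 0.0579) and without control cluster 1 (0.174 and 0.0796). Fitting only the 6 arrays of a drug left 4 calls (BZP), 2 (TFMPP), 2 (MeOPP) and 4 (MDBP), where all probe sets gave 1063, 1092, 1402 and 1550. With 1 value per control cluster the mean had 6 calls among the 11 probe sets and 4346 over all probe sets. Leaving out each pair in turn gave 4 to 6 calls for BZP, 1 to 2 for TFMPP, 2 to 4 for MeOPP, 4 for MDBP and 8 to 9 for the mean. Over all probe sets it gave 1461 to 2464, 139 to 199, 819 to 1226 and 821 to 1625 calls for the 4 drugs in that order. For the mean it gave 6002 to 6847. Apoe 1371288_at, never called, changed sign in 4 settings, to -0.0115 with MeOPP and the DMSO arrays joined, -0.0238 without the third MeOPP pair (up to 0.116 over the pairs left out), -0.106 without the first MDBP pair (up to 0.1705) and 0.0021 in the mean without control cluster 3. Of the single values under all alternatives, 1016 kept direction and side of the threshold, 92 lost a call, 13 gained one and 4 changed sign. Where no other cause is plain from fewer arrays, the cause was not tested. The alternatives without a control cluster and the benzyl against phenyl contrast were chosen after seeing the data.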

Other observations

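Tm6sf2 encodes an endoplasmic reticulum protein that helps to lipidate VLDL, and it was singled out after its values were seen. It changed by -0.56 ± 0.06 in the mean of the drugs (SE, n = 12 pairs; limma adjusted p = 4.73e-06; lower in 12 of 12 pairs), with BZP at -0.48, TFMPP at -0.54, MeOPP at -0.75 and MDBP at -0.48. Pon1, which encodes the HDL-bound paraoxonase and was also chosen after its values were seen, changed by -0.58 ± 0.06 (adjusted p = 6.38e-06; lower in 12 of 12 pairs). Apobec1, the enzyme that edits Apob RNA and is also made in rat liver, was higher by 0.24 ± 0.06 (adjusted p = 0.0103, higher in 9 of 12 pairs), and was chosen in the same way. Its mean value was low, at 5.18. A1cf of the same list went the other way, at -0.16 ± 0.05 (adjusted p = 0.03, lower in 10 of 12 pairs). None of these genes was put through the alternatives.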
